A study of Gossypium hirsutum with 12 samples.

Results

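Enzymes of leaf peroxide and redox metabolism were followed in heat-treated cotton under 4 names: GOX, by its name a glycolate oxidase, CAT2, a catalase, CSD2a, a copper/zinc superoxide dismutase, and GST, glutathione S-transferase. Every probe set annotated to 1 gene with exactly one of these names or synonyms was taken, which gave 7 of the 24132 probe sets on the array, for 5 of the 520 genes that have such a probe set. A probe set is the group of short array probes that reads 1 transcript or several related ones. GOX, CAT2 and CSD2a had 1 probe set each, and GST had 4 probe sets for 2 genes. The gene table gives names and no product description, so the enzymes are identified by name alone.

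Photorespiration starts when Rubisco takes up oxygen in place of carbon dioxide, and it is known to run faster as leaves warm. Glycolate formed in the chloroplast is oxidized by glycolate oxidase in the peroxisome, which releases hydrogen peroxide, and catalase breaks that peroxide down. Superoxide dismutases turn superoxide into hydrogen peroxide, and glutathione S-transferases attach glutathione to reactive or foreign compounds.

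Upland cotton (Gossypium hirsutum) of the cultivars Sicot 53 and Sicala 45 was grown in field soil, and the third youngest fully expanded leaf was taken at the first square stage. Total RNA of all leaf cells was hybridized to Affymetrix Cotton arrays in 4 groups of 3 arrays: Sicala 45 at 42 °C, Sicala 45 at 32 °C, Sicot 53 at 42 °C and Sicot 53 at 32 °C. All plants had 4 d of acclimation in a growth cabinet with 32 °C days and 25 °C nights, after which the heated ones, kept well watered, had 42 °C days at 67% relative humidity and 25 °C nights at 40%, for a time that the labels do not state. The heated plants used the same cabinet in a later run, so temperature and cabinet run cannot be told apart, and because the labels do not say that the leaf samples came from separate plants, p-values measure only the spread between these samples.

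The 12 arrays had been scaled to a common trimmed mean of 500, and no pair held identical values. The 3'/5' signal ratio of the ubq11 control, a measure of RNA integrity and labelling, was 6.39 to 41.5 at 42 °C and 4.73 to 10.7 at 32 °C. It was above 20 on 2 arrays, replicate 2 at 42 °C of each cultivar. The poly-A spikes, added control RNAs, had a geometric mean signal of 726 to 1130 at 42 °C and of 452 to 807 at 32 °C. RCA1, by its name Rubisco activase and the one leaf mesophyll marker with a named probe set, had 20925 to 45772 on the 12 arrays. Of 9 probe sets named for fibre genes, 7 were tested. Limma called 0 of them in any comparison, beside 0 to 8.8% of all tested probe sets. At an unadjusted p under 0.05 there was at most 1 of 7, beside 1.91 to 25.2% of all. For averaged heat and for heat in Sicala 45 that 1 was Fb2. It was 1.61-fold lower at 42 °C averaged over cultivars (limma adjusted p = 0.0607) and 1.76-fold lower in Sicala 45 (limma adjusted p = 0.210). In both cultivar comparisons that 1 was an EXP probe set, with signals of 6.42 to 630. In Sicot 53 it was 8.52-fold lower at 32 °C (limma adjusted p = 0.330). At 42 °C it was 6.74-fold lower there (limma adjusted p = 0.503). The other tested EXP probe set of the same gene did not share these falls. Its log2 differences, Sicot 53 minus Sicala 45, were −0.79 at 32 °C and 0.13 at 42 °C. E6, a fibre gene, had 413 to 1240 in these leaves, and the summed fibre marker signal was 22206 to 24087 in Sicala 45 at 42 °C, 22562 to 26116 in Sicala 45 at 32 °C, 15609 to 28945 in Sicot 53 at 42 °C and 22702 to 27296 in Sicot 53 at 32 °C. The LTP probe sets, at 10169 to 23004 and 3024 to 5290, were the largest part of that sum. It therefore mainly follows LTP and says little about E6 and the other fibre genes. The part of RNA integrity and of the spikes in the results was not tested beyond the values given with them.

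Of the 6 members bright enough to be tested, 1 passed the test for heat averaged over both cultivars: the GST gene LOC107948407, which was 2.24-fold lower at 42 °C. The test was limma on log2(signal + 16) over all 16820 probe sets tested, with Benjamini-Hochberg adjustment and a threshold of 0.05, and on this scale the change of dim probe sets is understated. In the same comparison 8.8% of all tested probe sets were called, 4.22% as higher and 4.59% as lower, a background from which a count of 1 among 6 cannot be set apart. GOX and CSD2a had positive log2 changes, which turned negative when arrays were scaled to the poly-A spikes, and CAT2 and the other tested GST probe sets had negative ones, none of which passed. The median of the 6 changes was −0.13, against −0.05 over all tested probe sets. In whole leaf samples, fewer cells of a type and less RNA per cell cannot be told apart.

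**Figure D1:**
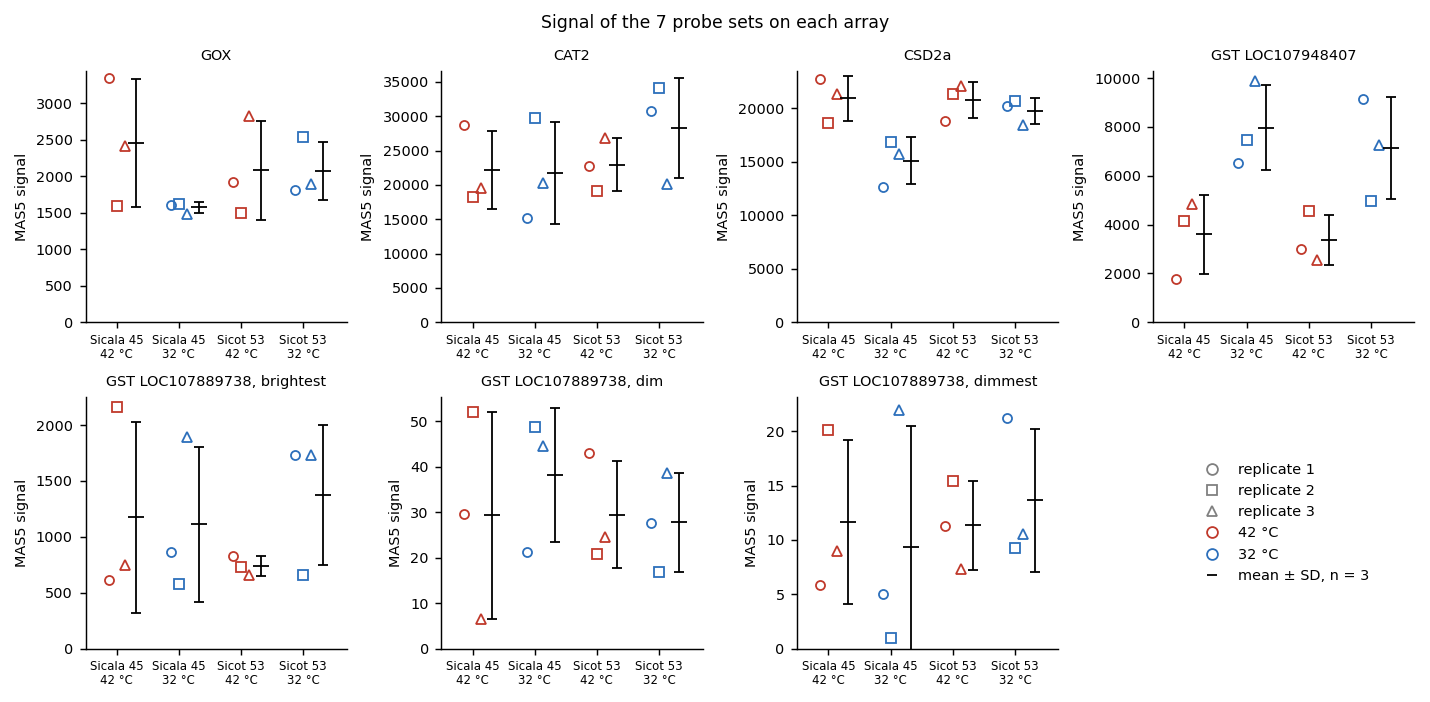
Deposited signal (linear MAS5 units, vertical axes from 0, one scale per panel) of the 7 member probe sets on each of the 12 arrays, with 42 °C left of 32 °C in each cultivar; points are arrays, and bars are the mean ± SD of 3 arrays, with 1 lower bar cut at 0. The GST gene LOC107948407 lies between 1763 and 4863 on the 42 °C arrays and between 4969 and 9901 on the 32 °C arrays.

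GOX (LOC107959960), the peroxide-producing step of photorespiration, had signals of 3348, 1598 and 2407 in Sicala 45 at 42 °C, against 1608, 1625 and 1485 in Sicala 45 at 32 °C. In Sicot 53 its signals were 1924, 1491 and 2824 at 42 °C and 1807, 2532 and 1886 at 32 °C. The 32 °C arrays of Sicala 45 were the tightest group, 2 of the 3 heated arrays of that cultivar stood above all of them, and the other lay inside their range. In Sicot 53 the heated arrays reached both above and below the 32 °C arrays. The group means were 2451 ± 876 against 1573 ± 76.4 in Sicala 45 and 2079 ± 680 against 2075 ± 397 in Sicot 53 (42 °C against 32 °C, SD, n = 3 each).

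The log2 heat change of GOX was 0.57 ± 0.29 (SE) in Sicala 45, with a limma adjusted p of 0.372. In Sicot 53 it was −0.03 ± 0.29, with a limma adjusted p of 0.972. The averaged change was 0.27, with a 95% interval of −0.17 to 0.71 and a limma adjusted p of 0.447, and it was −0.25 when arrays were scaled to the poly-A spikes, a scaling under which the median of all tested probe sets was −0.52. A heat response of GOX was therefore not detectable with 3 arrays per group, since the interval holds 0 as well as a rise of 0.71 on the log2 scale. Without both arrays with a high ubq11 ratio the change was 0.85 in Sicala 45, with a limma adjusted p of 0.139, and 0.18 in Sicot 53. With 1 array left out, the Sicala 45 change was 0.32 to 0.85, and scaled to the poly-A spikes it was 0.048.

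CAT2 (LOC107943729), whose namesake in Arabidopsis is the main leaf catalase of photorespiration, had 28698, 18182 and 19548 in Sicala 45 at 42 °C, against 15198, 29717 and 20245 in Sicala 45 at 32 °C. In Sicot 53 it had 22742, 19132 and 26859 at 42 °C and 30688, 34083 and 20146 at 32 °C. The 2 temperatures overlapped in both cultivars, and the 2 highest arrays of all were unheated Sicot 53. The gene is also listed under the synonym SU2.

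The averaged log2 heat change of CAT2 was −0.12 ± 0.21 (SE), with a 95% interval of −0.58 to 0.35 and a limma adjusted p of 0.789. It was 0.05 in Sicala 45 and −0.28 in Sicot 53, and the sign in Sicala 45 turned under quantile normalization, under scaling to the poly-A spikes and under array weights. Without both arrays with a high ubq11 ratio the averaged change was 0.01. Scaled to the poly-A spikes it was −0.64 with a limma adjusted p of 0.0273, beside a median of −0.52 for all tested probe sets.

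CSD2a (LOC107889076, also listed as CSD2b) carries the name of the chloroplast copper/zinc superoxide dismutase of Arabidopsis. Its signals were 22743, 18656 and 21362 in Sicala 45 at 42 °C and 12643, 16875 and 15744 in Sicala 45 at 32 °C, so every heated array of this cultivar was above every unheated one. Such a separation upward in Sicala 45 was seen in 9.58% of all tested probe sets. In Sicot 53 the signals were 18847, 21374 and 22127 at 42 °C and 20177, 20710 and 18425 at 32 °C, and the ranges overlapped.

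The log2 heat change of CSD2a in Sicala 45 was 0.48 ± 0.19 (SE, 95% interval 0.06 to 0.89), with a limma adjusted p of 0.258. In Sicot 53 it was 0.07 ± 0.19, with a 95% interval of −0.35 to 0.49 and a limma adjusted p of 0.898. Averaged over cultivars it was 0.27, with a 95% interval of −0.02 to 0.57 and a limma adjusted p of 0.233, but scaled to the poly-A spikes the averaged change was −0.25, that in Sicala 45 −0.051 and that in Sicot 53 −0.46. CSD2a was the steadiest member: its residual SD within groups was 0.15 on the log2 scale, lower than in all but 3.2% of the tested probe sets, whose median was 0.40. Across all 12 arrays its highest signal was 1.80 times its lowest.

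The GST gene LOC107948407 had signals of 1763, 4166 and 4863 in Sicala 45 at 42 °C, against 6525, 7461 and 9901 in Sicala 45 at 32 °C. In Sicot 53 it had 3012, 4537 and 2547 at 42 °C and 9147, 4969 and 7259 at 32 °C. All 6 heated arrays were below all 6 unheated ones, although the closest pair, 4863 in heated Sicala 45 and 4969 in unheated Sicot 53, nearly touched. Within both cultivars the heated arrays were below the unheated ones without overlap, as in 4.26% of all tested probe sets. The group means were 3597 ± 1627 against 7962 ± 1743 in Sicala 45 and 3366 ± 1041 against 7125 ± 2092 in Sicot 53 (42 °C against 32 °C, SD, n = 3 each).

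The averaged log2 heat change of this GST gene was −1.16 ± 0.27 (SE), with a 95% interval of −1.74 to −0.58 and a limma adjusted p of 0.0200. Of all tested probe sets, 1.8% had a lower change. The change was −1.25 in Sicala 45 (limma adjusted p = 0.126) and −1.08 in Sicot 53 (limma adjusted p = 0.201), neither of which passed on its own. The averaged call was lost without replicate 1 of Sicot 53 at 32 °C, where the change was −1.06 with a limma adjusted p of 0.0575, and without replicate 3 of Sicot 53 at 42 °C, where it was −1.07 with a limma adjusted p of 0.0560. Without both arrays with a high ubq11 ratio the change was −1.36, with a limma adjusted p of 0.0277. The IDs of the GST and CSD2a probe sets end in _s_at, which marks probes that can match several related transcripts, and cotton is tetraploid, so copies of a gene may share one signal.

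**Figure D2:**
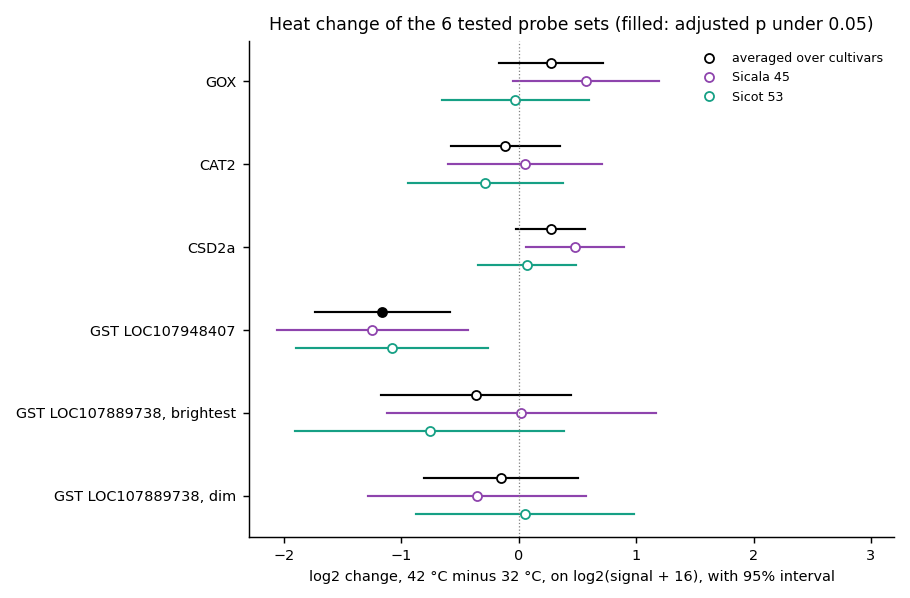
Log2 heat change (42 °C minus 32 °C, horizontal axis, on log2(signal + 16)) of the 6 tested member probe sets, averaged over cultivars and in Sicala 45 and Sicot 53 separately; circles are limma estimates, lines are 95% intervals, and a filled circle has an adjusted p under 0.05. The one filled circle is the averaged change of the GST gene LOC107948407 at −1.16, and most other intervals span 0.

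**Figure D3:**
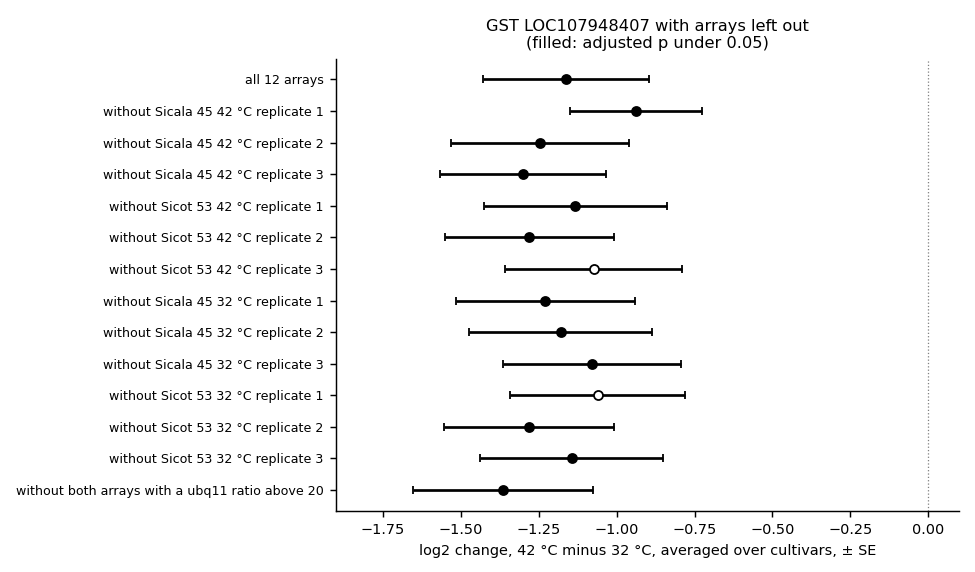
Averaged log2 heat change of GST LOC107948407 (42 °C minus 32 °C, horizontal axis, on log2(signal + 16)) with all 12 arrays, with each array left out in turn and without both arrays with a high ubq11 ratio; circles are limma estimates, bars are ± SE, and filled circles have an adjusted p under 0.05. With 1 array left out the change stays between −1.30 and −0.94, and 10 of the 12 such fits keep the call.

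The second GST gene, LOC107889738, had 3 probe sets of very different brightness. The brightest had 613, 2159 and 747 in Sicala 45 at 42 °C, against 861, 578 and 1896 in Sicala 45 at 32 °C. In Sicot 53 it had 829, 731 and 658 at 42 °C, against 1736, 655 and 1732 at 32 °C. Of the 12 arrays, 4 stood at 1732 to 2159, 1 in each Sicala 45 group and 2 in unheated Sicot 53, and all others lay between 578 and 861.

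The averaged log2 heat change of this brightest probe set was −0.37, with a 95% interval of −1.18 to 0.44 and a limma adjusted p of 0.593. It was 0.02 in Sicala 45 and −0.76 ± 0.53 (SE) in Sicot 53, where the limma adjusted p was 0.516. The high array of Sicala 45 at 42 °C, replicate 2, is one of the arrays with a high ubq11 ratio, and without both such arrays the change in Sicala 45 was −0.53. The residual SD of this probe set was 0.76 on the log2 scale, and 91.3% of tested probe sets had a lower one.

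A dim probe set of the same gene had 29.5, 52.1 and 6.49 in Sicala 45 at 42 °C, against 21.3, 48.8 and 44.6 in Sicala 45 at 32 °C. In Sicot 53 it had 43.0, 20.9 and 24.5 at 42 °C and 27.7, 16.9 and 38.7 at 32 °C. The groups overlapped throughout, and the averaged log2 heat change of −0.15 had a 95% interval of −0.81 to 0.51 and a limma adjusted p of 0.806. The dimmest probe set of this gene had signals of 0.976 to 21.96 and was left out of the test by the filter on dim probe sets. Fitted without that filter, its averaged log2 heat change was 0.04, with a 95% interval of −0.48 to 0.55 and a limma adjusted p of 0.961. None of the 3 probe sets of LOC107889738 thus gave a limma call for averaged heat.

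Within each cultivar taken alone, limma called 0 of the 6 members, beside 1.81% of all tested probe sets for heat in Sicala 45 and 1.36% for heat in Sicot 53. At an unadjusted p under 0.05 there were 2 members in Sicala 45, GST LOC107948407 and CSD2a, and 1 in Sicot 53, GST LOC107948407, beside 15.4% of all tested probe sets in Sicala 45 and 15.5% in Sicot 53. The difference between the heat changes, Sicot 53 minus Sicala 45, was called for 0 members and for 0% of all tested probe sets, of which 321 had an unadjusted p under 0.05, with 0 members among them. For GOX this difference was −0.60, with a 95% interval of −1.49 to 0.28. For CSD2a it was −0.41, with a 95% interval of −0.996 to 0.18, so the upward separation seen in Sicala 45 and the overlap in Sicot 53 were not shown to differ. For the GST gene LOC107948407 it was 0.17, with a 95% interval of −0.99 to 1.32, which allows clearly unequal falls as well as equal ones.

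Between cultivars, limma called 0 members at either temperature, beside 0.107% of tested probe sets at 32 °C and 0.107% at 42 °C, and 0 members had an unadjusted p under 0.05 there. At 32 °C, Sicot 53 arrays were all above Sicala 45 arrays for CSD2a and for GOX, a separation that 3.15% of tested probe sets showed. The Sicot 53 minus Sicala 45 difference at 32 °C was 0.40 for CSD2a, with a 95% interval of −0.02 to 0.82, and 0.38 for GOX, with a 95% interval of −0.24 to 1.01. The limma adjusted p was 0.9998 for both. At 42 °C the ranges of the cultivars overlapped for every tested member, and the differences were −0.01 for CSD2a and −0.22 for GOX.

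Ordered by mean signal, unheated Sicala 45 was the lowest group for both CSD2a and GOX, clear of the next group, unheated Sicot 53, while the 3 higher groups overlapped. For the GST gene LOC107948407 both 32 °C groups stood above both 42 °C groups, and the cultivars overlapped within each temperature. For CAT2 and the probe sets of LOC107889738 every neighbouring pair of groups overlapped.

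CAT2 and CSD2a were among the brightest signals on these arrays. CAT2 was at 42.5 to 66.7% and CSD2a at 35.0 to 55.4% of the highest value of the same array, a measure of brightness that does not compare transcript amounts between genes. That highest value was itself 37642 to 53575 at 42 °C and 24448 to 52186 at 32 °C. Across the 12 arrays, CAT2 signal went with the array's highest signal, with a Pearson r of 0.858 (permutation p = 0.00078, adjusted over 6 relations 0.00468) and a Spearman rho of 0.741 (permutation p = 0.00762, adjusted 0.0457). Without the 2 arrays farthest from the median, r was 0.804, and it was 0.721 among the 42 °C arrays and 0.985 among the 32 °C arrays. For CSD2a r was 0.784 (permutation p = 0.00834, adjusted 0.0250) and rho 0.650 (permutation p = 0.0265, adjusted 0.0794), and r was 0.422 without the 2 farthest arrays, so the pooled relation depended on them. Within temperatures r for CSD2a was 0.809 among the 42 °C arrays and 0.849 among the 32 °C arrays. For the other 4 tested members no adjusted permutation p was below 0.05, the lowest being 0.141. The permutations shuffled all 12 arrays without regard to group. Bright probe sets outside the members were not tested, so the relation is not shown to be particular to CAT2 or CSD2a. RCA1, for example, had 20925, 40740 and 29430 in Sicala 45 at 32 °C, on arrays with highest signals of 24448, 48204 and 35711. The part of this array property in the CAT2 and CSD2a values was not tested.

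**Figure D4:**
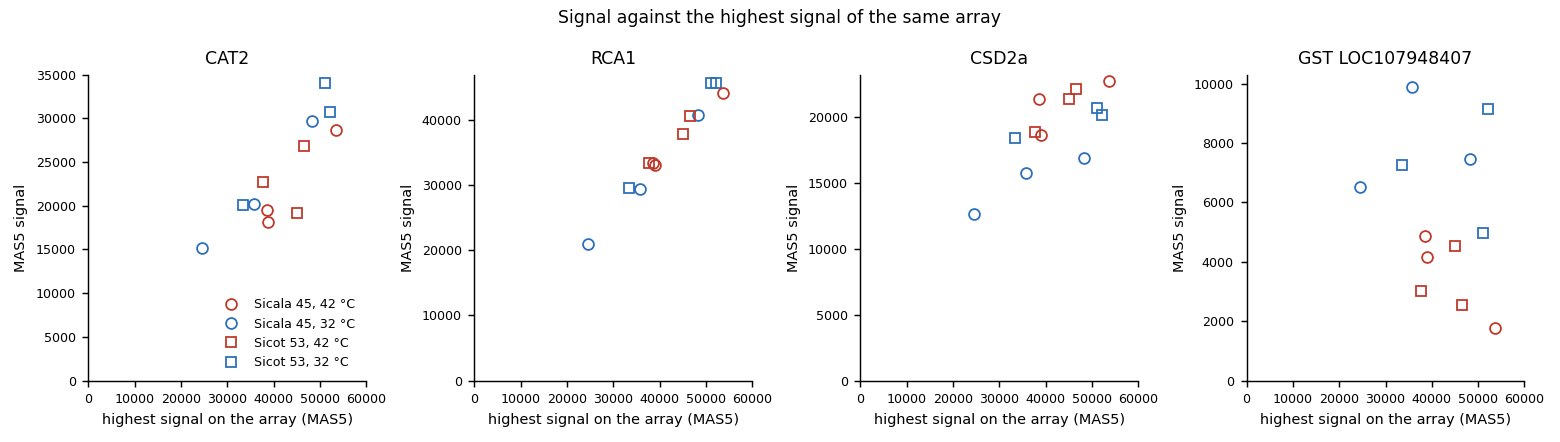
Signal of CAT2, RCA1, CSD2a and GST LOC107948407 (vertical axes) against the highest signal of the same array (horizontal axis), both in linear MAS5 units from 0, for the 12 arrays by cultivar (circles Sicala 45, squares Sicot 53) and temperature (red 42 °C, blue 32 °C). RCA1 is shown as the named probe set most like CAT2. CAT2 signal is higher on arrays with a higher top signal (r = 0.858). For CSD2a r is 0.784 over all arrays, 0.422 without the 2 farthest from the median, 0.809 within 42 °C and 0.849 within 32 °C. GST LOC107948407 shows no such rise, with r of −0.315 over all arrays, −0.721 within 42 °C and −0.0208 within 32 °C. Each r is a Pearson value on the log2 scale, unlike the linear axes.

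The members did not move as 1 group across arrays. In descriptive correlations of log2(signal + 16) over the 12 arrays, which share the scaling and the temperature groups, GST LOC107948407 ran against GOX (r = −0.715) and against CSD2a (r = −0.575). GOX and CSD2a ran together (r = 0.644), as did CAT2 with CSD2a (r = 0.526) and with GOX (r = 0.523). Both tested probe sets of the second GST gene had an r of 0.455 with each other.

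By the same measure, the pattern of each member was matched against 256 other tested probe sets with a gene name. CAT2 was most like RCA1 (r = 0.882) and CBP3 (r = 0.877). CSD2a was most like SKD1 (r = 0.838) and CBP2 (r = 0.807), and GOX was most like NAC7 (r = 0.867) and HrBP1 (r = 0.819). GST LOC107948407 was most like BTub1 (r = 0.922), by its name a beta-tubulin, and Ssh2 (r = 0.913). Of the other GST gene, the brightest probe set was most like cdn1 (r = 0.857), named for cadinene synthase of cotton's terpenoid defence compounds, and TPS1 (r = 0.812), and the dim one was most like ANT1 (r = 0.853) and GhKTN1 (r = 0.721), named for the microtubule-severing protein katanin. Some of these were dim: NAC7 had signals of 30.5 to 78.3, cdn1 1.31 to 205 and TPS1 4.10 to 90.8. Without detection calls their distance from background is unknown.

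Other enzymes of photorespiration and antioxidant defence, from a list of names, had 7 probe sets for 6 genes, all of them tested. They were the superoxide dismutases FeSOD and Mn-SOD, the ascorbate peroxidases gAPX and sAPX, which remove hydrogen peroxide with ascorbate, DHAR1, which regenerates ascorbate from its oxidized form, and GS, by its name alone glutamine synthetase, which re-fixes the ammonia that photorespiration releases. By limma, 0 of 7 were called as higher and 0 as lower for averaged heat, beside 4.22% and 4.59% of all tested probe sets. In the other 5 comparisons 0 were called, beside 0 to 1.81% of all tested probe sets. Counts of 0 among 7 cannot be set apart from these shares. At an unadjusted p under 0.05, GS was the 1 probe set for averaged heat and for heat in Sicot 53, beside 25.2% of all tested probe sets for averaged heat and 15.5% for Sicot 53, and there were 0 in the other comparisons. All 7 averaged changes were negative, with a median of −0.27 against −0.05 over all tested probe sets, but those of FeSOD, −0.042, and sAPX, −0.038, were positive under median centring.

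GS had 742, 465 and 292 in Sicala 45 at 42 °C, against 676, 592 and 712 in Sicala 45 at 32 °C. In Sicot 53 it had 465, 236 and 409 at 42 °C, against 487, 729 and 764 at 32 °C, so the heated arrays of Sicot 53 were all below the unheated ones, as in 11.7% of tested probe sets. Its averaged log2 change was −0.66 ± 0.24 (SE, 95% interval −1.17 to −0.14), with a limma adjusted p of 0.105. Both Mn-SOD probe sets, for the mitochondrial type of superoxide dismutase, had averaged changes of −0.47 and −0.51, with limma adjusted p of 0.280 and 0.228. The probe set at −0.47 was dim, with signals of 11.3 to 65.1, and the one at −0.51 had 465 to 1452. DHAR1 had −0.27, with a 95% interval of −0.80 to 0.27 and a limma adjusted p of 0.548. The IDs of the FeSOD, sAPX, gAPX and DHAR1 probe sets also end in _s_at. That of GS ends in _x_at, which marks probes that can match other transcripts too.

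**Figure D5:**
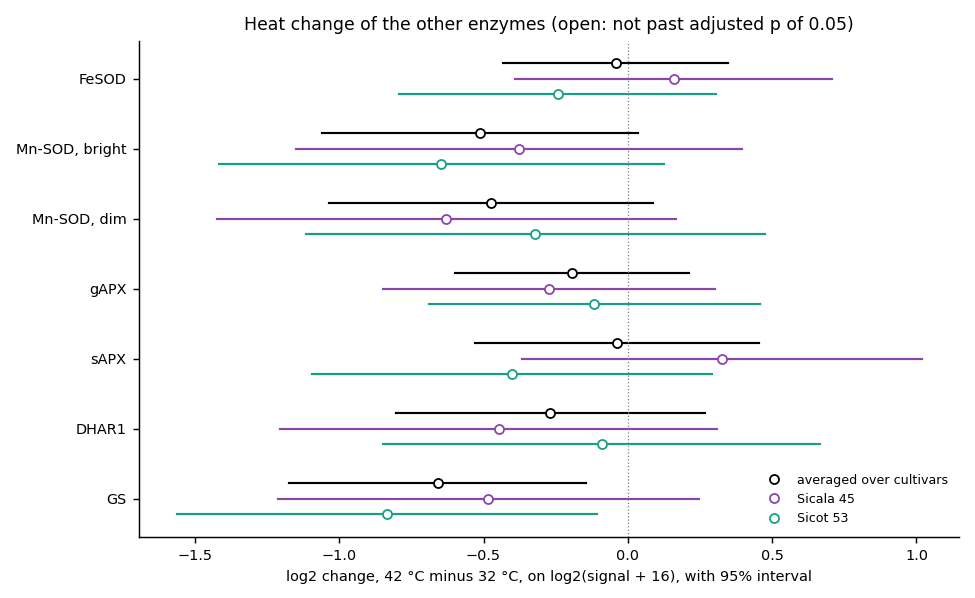
Log2 heat change (42 °C minus 32 °C, horizontal axis, on log2(signal + 16)) of the 7 probe sets of other photorespiration and antioxidant enzymes, averaged over cultivars and in Sicala 45 and Sicot 53 separately; circles are limma estimates and lines 95% intervals. All circles are open, since 0 of the 7 passed the test, beside 8.8% of all tested probe sets for averaged heat. For Sicala 45 that share was 1.81%, and for Sicot 53 it was 1.36%. The averaged change is lowest for GS at −0.66.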

How the data were processed

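Total RNA of 12 cotton leaf samples was measured on Affymetrix Cotton arrays. The deposited values are linear intensity values, 1 per probe set and array, made by the authors with MAS5 (no version given), per the submitters' processing notes. They have no detection calls, so the distance of dim probe sets from background is unknown. Separately, the number of arrays limits precision. Arrays were grouped by title.

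From these values log2(signal + 16) was computed. The 103 AFFX control probe sets and the dimmest 30% by mean log2 value were left out. Limma 3.58.1 in R 4.3.3 (lmFit, eBayes with an intensity trend, two-sided, 95% intervals) was fitted to 4 groups. Its trial on simulated data used independent noise without differences between arrays, so it is no support for calls on these arrays. P-values were adjusted by Benjamini-Hochberg within each of 6 comparisons, with a threshold of 0.05. Correlations with the array's highest signal had permutation tests (scipy 1.17.1). Python 3.11.15 with matplotlib 3.10.9 drew the figures.

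The platform annotation gave gene IDs, and names were looked up by ID in a table for the assembly Gossypium_hirsutum_v2.1. It lists 1 gene for 697 of 24132 probe sets, several for 46 and none for 23389. All 697 IDs were found, and 324 of them had a name. No coordinates are given.

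Members, lists and alternatives were chosen with earlier results of these data known. Named were all members, the 4 probe sets of the enzyme list of lowest p for averaged heat where none was called, and the 2 named probe sets most like each member. The other enzymes of the list were named after their values were seen. The list was matched by gene name alone, since the gene table used here holds no product descriptions.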

Additional observations from a re-analysis of the deposited data

How the results depend on the processing

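The averaged fall of GST LOC107948407 kept its direction in all 24 alternatives, from −1.69 under scaling to the poly-A spikes to −0.94, and lost its call in the 2 fits named with it, where the count of called members was 0 against 1. The 3 arrays a group limit precision, and without detection calls the distance of the dim probe sets from background is unknown. Counts of called members moved to 2 for averaged heat and 1 for Sicala 45 under the spikes, and to 1 for Sicot 53 under array weights. Under the spikes CAT2 averaged −0.64, and GST LOC107948407 in Sicala 45 was −1.77 (limma adjusted p = 0.0308). Under array weights GST LOC107948407 in Sicot 53 was −1.55 (limma adjusted p = 0.00339). Of the other enzymes, GS, both Mn-SOD probe sets, DHAR1 and gAPX were called as lower under the spikes, at −1.17 to −0.72. GS was also called as lower without replicate 1 of Sicala 45 at 42 °C, at −0.82 (limma adjusted p = 0.0366), the only one of the 12 fits leaving out 1 array to call it. Over all tested probe sets, averaged heat gave 1481 calls in the main analysis, 5848 under the spikes, 2954 under array weights, 780 without both arrays of high ubq11 ratio and 760 to 1675 with 1 array left out. For heat in Sicala 45 there were 304 calls, 739 under the spikes, 513 under array weights, 140 with only the groups compared and 98 to 337 with 1 array left out. For heat in Sicot 53 there were 228 calls, 142 under the spikes, 2000 under array weights, 60 with only the groups compared, 15 without both arrays of high ubq11 ratio and 18 to 276 with 1 array left out. The split into higher and lower for averaged heat was 709 and 772, against 820 and 663 under quantile normalization, 882 and 527 under median centring and 269 and 5579 under the spikes. The cause of these moves was not tested.

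Sign changes, none of a called value, were as follows on the log2 scale, where bright and dim name the brightest and the next probe set of GST LOC107889738. Under quantile normalization FeSOD averaged 0.015 and CAT2 in Sicala 45 was −0.11. Under median centring FeSOD averaged 0.046 and sAPX 0.050, GOX in Sicot 53 was 0.058, and the cultivar difference at 42 °C was 0.030 for CSD2a and 0.025 for GST LOC107948407. Under the spikes CSD2a and GOX both averaged −0.25. CSD2a was −0.051, bright GST LOC107889738 −0.50 and CAT2 −0.48 in Sicala 45. CSD2a was −0.46 and dim GST LOC107889738 −0.26 in Sicot 53, and the cultivar difference at 42 °C was −0.069 for dim GST LOC107889738 and −0.26 for CAT2. Under array weights sAPX averaged 0.025, CAT2 in Sicala 45 was −0.059 and GOX in Sicot 53 was 0.31. For GST LOC107948407 the difference in heat change was then −0.54 and the cultivar difference at 32 °C 0.15, and at 42 °C that difference was 0.058 for CSD2a and 0.17 for GOX. Without both arrays of high ubq11 ratio CAT2 averaged 0.0096, FeSOD 0.14 and sAPX 0.20, bright GST LOC107889738 in Sicala 45 was −0.53 and GOX in Sicot 53 was 0.18, and the cultivar difference at 42 °C of bright GST LOC107889738 was 0.12.

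With 1 array left out, averaged changes that turned sign were −0.23 to 0.011 for CAT2, −0.14 to 0.053 for FeSOD, −0.18 to 0.099 for sAPX and −0.33 to 0.067 for dim GST LOC107889738. In Sicala 45 they were −0.18 to 0.31 for CAT2, −0.72 to 0.079 for dim GST LOC107889738 and −0.53 to 0.49 for bright GST LOC107889738. In Sicot 53 they were −0.27 to 0.18 for GOX and −0.15 to 0.23 for dim GST LOC107889738. The cultivar difference at 42 °C was −0.062 to 0.27 for CAT2, −0.088 to 0.061 for CSD2a, −0.50 to 0.034 for GOX, −0.32 to 0.48 for dim GST LOC107889738, −0.78 to 0.12 for bright GST LOC107889738 and −0.46 to 0.27 for GST LOC107948407. At 32 °C it was −0.027 to 0.82 for bright GST LOC107889738 and −0.38 to 0.055 for GST LOC107948407. The difference in heat change was −0.024 to 0.77 for dim GST LOC107889738 and −0.28 to 0.45 for GST LOC107948407.

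The replicate numbers are shared by the labels of all groups, but same-numbered arrays did not deviate together: 7 of 18 such pairs had a correlation over 0.1, with a range of −0.48 to 0.46, and 5 of 12 arrays correlated best with their own number. With the replicate block, GST LOC107948407 averaged −1.16 with a limma adjusted p of 0.0306, no member's call changed, and averaged heat gave 1316 calls over all tested probe sets.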
